A study of Mus musculus with 4 samples.

Results

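Meis1, Meis2, Pbx3 and Pknox1 encode homeodomain proteins of the TALE class, which bind DNA together with HOX proteins. These 4 of the 22175 genes named on the array were measured through the probes that carry their names in the array design and are not control spots, 178 of 520554 probes: 59 for Meis1, 49 for Meis2, 39 for Pbx3 and 31 for Pknox1. After a filter on input signal and on outlier flags of either channel, 111 of the 178 were kept (36, 33, 20 and 22), against 328399 probes kept in all. The filter did not use the level of the MeDIP signal, so a probe could not pass through the group in which it was high.

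MEIS and PBX proteins form dimers with each other and with HOX proteins, and the dimers bind DNA more selectively than a HOX protein alone. Meis1 is known as the partner of Hoxa9 in acute myeloid leukaemia, where the pair together transforms blood progenitors, and Pbx3 is known as a further partner of that pair. Meis2 is the close paralogue of Meis1, and Pknox1, also called Prep1, belongs to a related branch that competes with MEIS proteins for PBX. Promoters of such developmental regulators usually lie in CpG-dense sequence that carries little DNA methylation in cells that use the gene.

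DNA of mouse leukaemic cells was measured on 4 arrays, 1 for each of 4 groups: untreated cells of WT and of KO genotype, and decitabine-treated cells of both. Decitabine is a cytosine analogue that traps DNA methyltransferases, and it was given at 20 nM every 24 h on 3 days before harvest at 72 h, which was also the harvest time of the untreated cells. All groups grew in serum with human IL-6, mouse IL-3 and mouse SCF. The labels disagree on the gene that the KO cells lack: the source names carry Mll5 and the genotype field of the same samples reads HOXA9 KO, and all 4 samples carry the cell line name MII5, so KO is used here as the titles give it. Source names also end in HM, which the labels do not explain. Neither the number of clones nor the number of cultures behind an array is given.

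In MeDIP, an antibody against methylated cytosine pulls down methylated DNA, and each array set that DNA (Cy3) against input DNA of the same cells (Cy5). Levels of different genes come from different probes, each with its own hybridisation, so their order describes these probes only. The value of a probe is the log2 ratio of MeDIP over input, centred on the median of the kept probes of its array, so a change shared by all probes of an array is not seen. The level of a gene is the mean over its kept probes, and its SD is a spread over probes, not a replicate error. Where 4 values follow each other, they stand for untreated WT, untreated KO, treated WT and treated KO cells. There was 1 array for each group, each on a slide of its own, so group and slide cannot be told apart and differences between arrays have no replicate check. The MeDIP signal was weak: the scanner software called it well above background at 4.21% and 4.21% of kept probes in WT and KO untreated cells and at 14.6% and 16.5% under decitabine. Probes spotted more than once differed between spots by a pooled SD of 0.367 to 0.42 on the log2 scale.

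The probes that the results turn on are shown first, as deposited, on the plus strand of mm9, with each CpG in capitals. A CpG is the pair of bases at which mouse DNA is mainly methylated. Distances are counted from the nearest annotated coding transcript start, negative upstream.
Meis1 at -149, chr11:18919088-18919132: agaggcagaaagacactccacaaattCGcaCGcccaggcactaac
Meis1 at -1770, chr11:18920709-18920753: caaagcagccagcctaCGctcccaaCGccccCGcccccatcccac
Meis2 at -853, chr2:115892403-115892454: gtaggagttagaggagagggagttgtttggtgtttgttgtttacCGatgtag
Pbx3 at -861, chr2:34228397-34228441: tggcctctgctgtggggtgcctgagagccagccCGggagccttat
Pknox1 at 13761, chr17:31715457-31715501: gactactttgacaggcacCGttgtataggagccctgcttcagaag
Pknox1 at 13949, chr17:31715639-31715695: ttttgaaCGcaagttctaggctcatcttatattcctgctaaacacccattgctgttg
Pknox1 at 14726, chr17:31716417-31716471: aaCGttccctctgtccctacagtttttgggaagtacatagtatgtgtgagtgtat
Pknox1 at 15921, chr17:31717617-31717661: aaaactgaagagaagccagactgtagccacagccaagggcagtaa
Pknox1 at 17405, chr17:31719101-31719145: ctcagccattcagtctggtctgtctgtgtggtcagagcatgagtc

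The Meis1 probe at -1770 holds 3 CpGs and the Meis1 probe at -149 holds 2, whereas the Pknox1 probes at 15921 and 17405 hold none. MeDIP pulls down fragments longer than a probe, so a probe without a CpG can also have signal. The window of 500 bases around the Meis1 probe at -149 held 30 CpGs and was CpG-dense, and the windows around the 5 Pknox1 probes held 4, 5, 10, 7 and 9 CpGs and were CpG-poor.

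Meis1, the partner of Hoxa9, lies on the minus strand of chr11:18780433-18918961, and some of its kept probes lie past its end, within the non-coding gene 8430419K02Rik. Its level was -0.02 ± 1.21 (SD over 36 probes) in WT untreated cells, 0.01 ± 0.88 in KO untreated cells, -0.07 ± 1.06 in WT decitabine cells and -0.05 ± 1.0 in KO decitabine cells. The 4 levels lay close to each other and to the median gene of the array, which was -0.04, -0.04, 0.04 and 0.02. MeDIP was well above background at only 1 of 36 Meis1 probes in each untreated array and at 2 of 36 in each decitabine array, so most of the level rests on signal near background. A substitute value for the MeDIP signal stood at 26, 24, 21 and 15 of the 36 probes.

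Those few Meis1 probes lie upstream of the start. The probe at -1770 was well above background on all 4 arrays, and its input lay 5.53, 5.24, 5.5 and 4.9 above the array median (log2). Its ratios were -2.15 in WT untreated, -1.17 in KO untreated, -0.27 in WT decitabine and 0.76 in KO decitabine cells. Both decitabine arrays were above both untreated arrays, by 3.67-fold in WT cells and 3.8-fold in KO cells. Among all kept probes well above background on both arrays of a pair, 26.4% were at least 2-fold higher under decitabine in WT cells and 41.0% in KO cells, so such a difference was common on these arrays, whereas 2.87% and 0.259% were at least 2-fold lower. Over the 11 settings tried, the difference at this probe stayed above 0, from 0.91 to 2.23 in WT cells and from 0.38 to 2.05 in KO cells.

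Nearer to the start, the Meis1 probe at -149 had ratios of -2.55, -1.89, -0.56 and 0.44 and was well above background under decitabine only, which makes the difference at least 1.47-fold in WT cells and at least 1.83-fold in KO cells. An "at least" value sets the probe against the dimmer array at the higher of the probe's own signal and the lowest signal called well above background there. It holds only for the centring used here and was not computed under other settings. Centring on probes well above background lowers every such value, as it moved the median gene from 0.10 to -0.37 in WT and from 0.09 to -0.69 in KO cells. The neighbour of the probe at -149, at -41, was not well above background on any array and read -2.52, -1.79, -2.95 and -2.95. There the scanner software had put a substitute near the background limit in place of the MeDIP signal on all 4 arrays, so those values follow the input and show no pattern of methylation. The 200 bases upstream of the start that hold the probe at -149 are printed below on the gene strand (minus, mm9, chr11:18918981-18919180), from 219 to 20 bases before the start, with 9 CpGs in capitals and 58.5% G and C.
Meis1 upstream: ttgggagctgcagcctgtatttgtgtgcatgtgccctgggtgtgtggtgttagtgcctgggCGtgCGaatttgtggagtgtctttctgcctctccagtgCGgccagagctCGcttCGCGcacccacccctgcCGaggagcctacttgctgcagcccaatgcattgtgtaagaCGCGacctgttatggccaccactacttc

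Within Meis1, the 6 kept probes in CpG-dense windows had median levels of -0.39, -0.29, -0.50 and -0.41. The 13 in CpG-poor windows had medians of 0.27, 0.18, 0.24 and -0.10. The ranges of both classes overlapped on every array, and none of the 13 CpG-poor probes was well above background on any.

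Meis2, the paralogue of Meis1, lies on the minus strand of chr2:115688800-115891575 and has 10 annotated coding starts. Its level was 0.13 ± 1.29 (SD over 33 probes), -0.02 ± 0.95, 0.02 ± 1.09 and -0.14 ± 0.89. KO decitabine cells had the lowest level and WT untreated cells the highest, a difference without a replicate check. The number of probes well above background was 2, 1, 3 and 4 of 33.

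The Meis2 probe at -853 was well above background on all 4 arrays, with ratios of 0.85, 0.33, 0.59 and -0.07. Unlike the probes of the other 3 genes that were measured on both arrays of a pair, it read lower under decitabine, with differences of -0.26 in WT and -0.40 in KO cells on the log2 scale, although the sign in each turned positive with the MeDIP channel alone (0.77 and 0.07). Its input lay 3.35, 4.86, 4.54 and 5.48 above the array median (log2), so the lower ratios went with higher input. The probe at -381 was well above background in WT untreated (1.85) and KO decitabine cells (0.50) but not in KO untreated (-0.59) or WT decitabine cells (0.25). Some Meis2 probes upstream of the start also overlap the non-coding genes 2700033N17Rik and G630016G05Rik, so their signal belongs to a shared stretch. Other kept Meis2 probes lie past the end of the gene and enter its level. Of these, the probe at 12242 was well above background on both decitabine arrays.

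Pbx3, which encodes the PBX protein of the set, lies on the minus strand of chr2:34026977-34228660. Its level was -0.27 ± 1.10 (SD over 20 probes) in WT untreated, -0.58 ± 0.76 in KO untreated, -0.23 ± 0.93 in WT decitabine and -0.23 ± 0.79 in KO decitabine cells. It was the lowest of the 4 genes on every array, and in KO untreated cells only 6.43% of all 18332 measured genes lay lower. The probes well above background numbered 0, 1, 2 and 3 of 20, so the KO untreated level rests on 1 probe above background and 19 that were not.

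The Pbx3 probe at -861 lies upstream of the nearest coding start, in an intron of a longer transcript. It read -2.33, -1.58, -0.80 and -0.46, and was well above background on every array except WT untreated. The difference was 2.17-fold between the KO arrays and at least 2.06-fold between the WT arrays. With loess within arrays the KO difference was -0.05 on the log2 scale. A probe in the 5′ untranslated part of Pbx3, in CpG-dense sequence 28 bases after the nearest coding start, read -1.24, -1.74, 0.18 and 1.14 and was well above background on both decitabine arrays, at least 2.68-fold higher in WT and at least 3.33-fold higher in KO cells. Over the 9 kept probes within 1000 bases of a Pbx3 start, both of these included, the mean was -0.66, -0.71, -0.57 and -0.43.

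Pknox1, which encodes a competitor of MEIS proteins for PBX, lies on the plus strand of chr17:31701718-31744638. Its level was 0.13 ± 0.94 (SD over 22 probes) in WT untreated, 0.15 ± 0.77 in KO untreated, 0.50 ± 0.81 in WT decitabine and 0.42 ± 1.22 in KO decitabine cells. It had the highest level of the 4 genes on both decitabine arrays, where it stood at percentiles 90.1 and 87.6 of all genes, against 64.9 and 73.6 without treatment. MeDIP was well above background at 1 of 22 Pknox1 probes on each untreated array and at 6 of 22, or 27.3%, on each decitabine array.

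**Figure D1:**
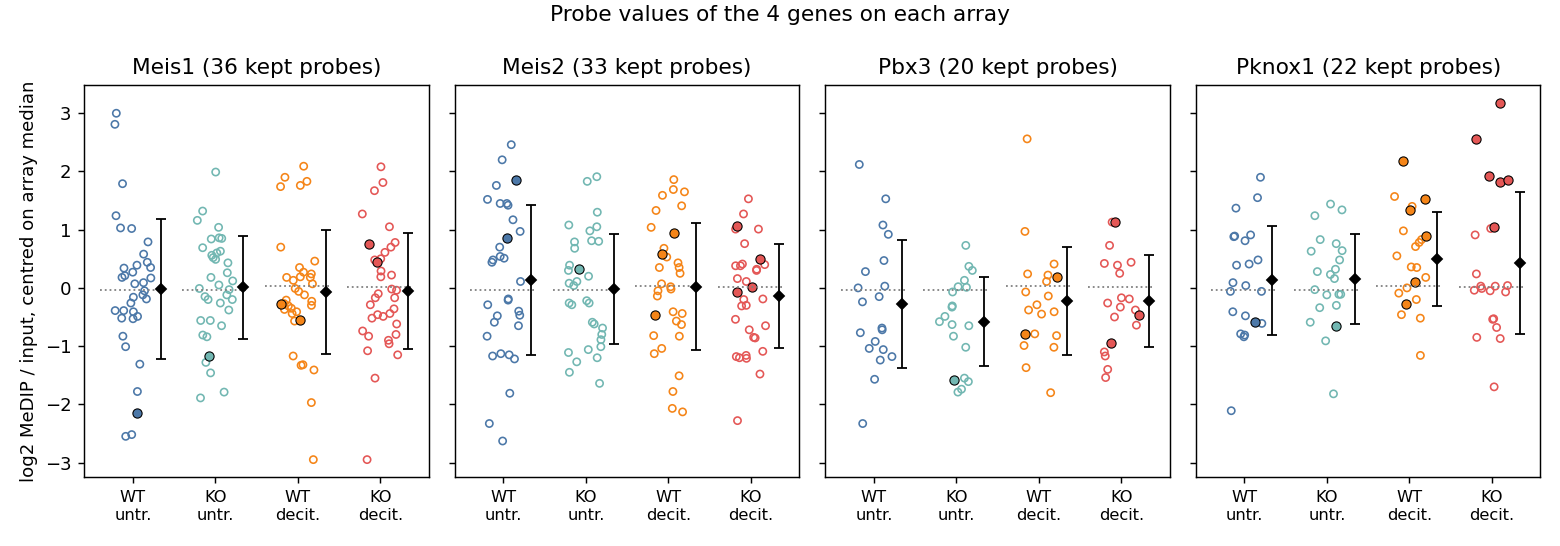
The log2 ratio of MeDIP over input (vertical axis, centred on the array median) of every kept probe of the 4 genes on each array. Filled points are probes with MeDIP well above background, open points the others, diamonds with bars the mean and SD over probes, and dotted lines the median gene; filled points are few except for Pknox1 under decitabine, with 6 of 22 on each array.

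These Pknox1 probes lie inside the gene, not at its promoter. All 31 probes with this name lie downstream of the annotated start, and 30 of them are intronic. The 4 probes that were well above background on both decitabine arrays and on neither untreated array lie between 13761 and 15921 bases after the start, and their sequences are the first 4 Pknox1 lines above. The 6 kept probes of that stretch averaged 0.43 in WT untreated, 0.59 in KO untreated, 1.34 in WT decitabine and 1.52 in KO decitabine cells, and the other 16 averaged 0.02, -0.01, 0.19 and 0.01. The stretch was picked after its values were seen, so this is a description without a test. Of the 22 kept Pknox1 probes 18.2% showed that pattern, of all 111 kept probes of the 4 genes 6.31%, and of all kept probes 7.06%.

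The Pknox1 probe at 17405 was well above background on all 4 arrays and read -0.59, -0.66, 0.10 and 1.04. Decitabine cells were 1.6-fold higher in WT and 3.24-fold higher in KO. With loess within arrays the WT difference was -0.04 on the log2 scale. In the stretch itself, the probe at 15921 read -0.48, 0.63, 0.90 and 1.92, at least 1.5-fold higher in WT and at least 2.45-fold higher in KO cells. At 13761 the difference was at least 1.14-fold in WT and at least 1.42-fold in KO cells. It was at least 1.17-fold at 13949 in WT cells and at least 1.96-fold at 14726 in KO cells. For 13949 in KO cells and 14726 in WT cells the bound was below 0 (-0.39 and -0.09, log2), so no rise is shown there.

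The annotated Pknox1 start is covered by 8 probes that carry sequence accessions in place of the gene name and are therefore not among the 178. The 7 kept had means of -0.90 ± 1.02, -0.92 ± 0.87, -0.67 ± 0.84 and -0.60 ± 1.07, and 1 was well above background, on the KO decitabine array. The other 6 kept probes at the start were not well above background on any array. Over all kept probes the share was 4.21%, 4.21%, 14.6% and 16.5%, so such a count among 7 probes is common on these arrays.

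**Figure D2:**
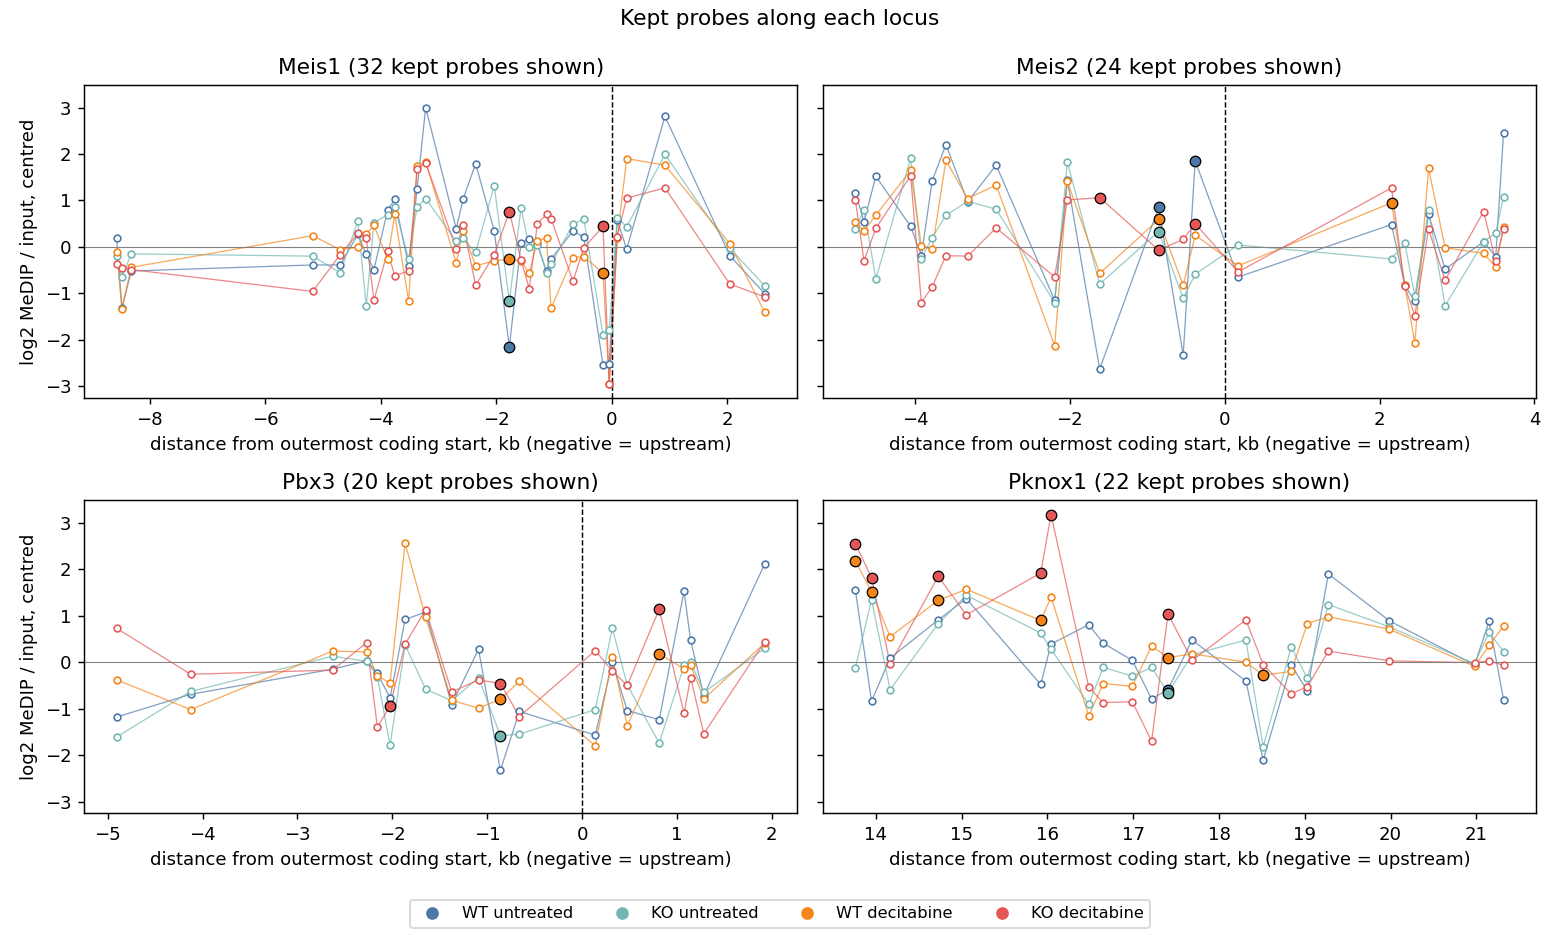
The log2 ratio of each kept probe (vertical axis) against its distance from the outermost coding start in kb (horizontal axis), with 1 colour for each array and filled points for MeDIP well above background. Meis1 and Meis2 probes more than 20 kb downstream are not drawn, which leaves 32 and 24. Filled points sit singly in Meis1, Meis2 and Pbx3. Between 13761 and 15921 bases in Pknox1, 4 of the 6 kept probes are filled on each decitabine array, with open points among them.

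For decitabine in WT cells, the differences of gene levels were -0.05 for Meis1, -0.11 for Meis2, 0.04 for Pbx3 and 0.37 for Pknox1, against a median of 0.10 over all genes. In KO cells they were -0.06, -0.12, 0.35 and 0.27, against a median of 0.09. Meis1 and Meis2 lay below the median gene in both, at percentiles 31.6 and 25.2 in WT and 30.8 and 23.9 in KO cells, and Pknox1 lay above it in both, at percentiles 81.7 and 73.4. Pbx3 stood near the median in WT cells (percentile 42.5) and above it in KO cells (81.4). In KO cells the Pknox1 position depended on how probes were summarised: its median over probes was 0.20 untreated and 0.03 under decitabine, a difference of -0.17.

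No gene of the 4 reached a 2-fold difference with at least 80% of its probes moving that way. By that rule 0.649% of all genes were higher and 0.0927% lower under decitabine in WT cells, and 0.666% were higher and 0.0491% lower in KO cells. Probes of the same gene moved both ways: 13 of 22 Pknox1 probes were higher in WT cells and 11 of 22 in KO cells, and 14 of 36 Meis1 probes were higher in each. The 2 differences of a probe, in WT and in KO cells, come from different arrays; they had the same sign at 78 of the 111 kept probes, or 70.3%, against 66.8% of all kept probes.

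**Figure D3:**
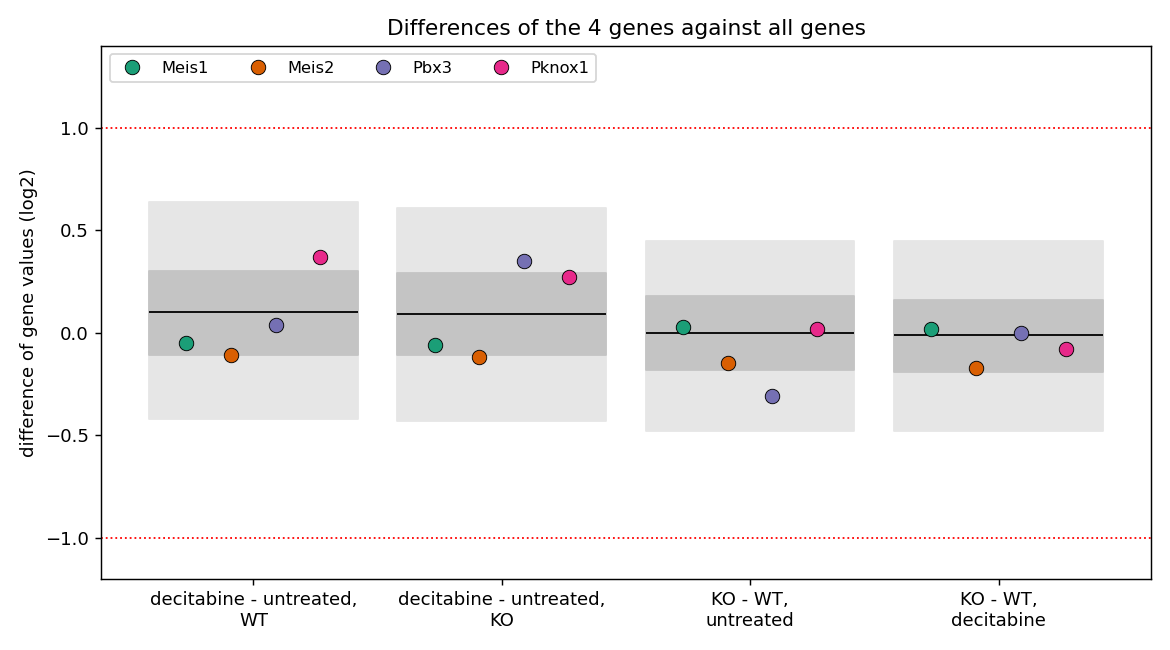
The difference in gene level (vertical axis, log2) of the 4 genes in each pair of arrays, over bands for the middle 50% and 90% of all 18332 genes and a line at their median. All 4 genes lie inside the wide band in every pair, and none reaches the dotted 2-fold lines.

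An additive model of genotype and treatment over the 4 arrays (limma, Benjamini-Hochberg over all genes) leaves 1 residual degree of freedom, the departure from additivity, which stands in for replicate error and may be smaller than it. The decitabine effect in that model was 0.32 for Pknox1 (SE 0.12, adjusted p = 0.0988), 0.20 for Pbx3 (SE 0.13, adjusted p = 0.317), -0.05 for Meis1 (SE 0.12, adjusted p = 0.79) and -0.11 for Meis2 (SE 0.12, adjusted p = 0.534). None of the 4 passed, while 11.0% of all genes passed as higher and 3.50% as lower. At an unadjusted limma p under 0.05 it was 1 of 4 (Pknox1), near the 33.1% of all genes. Pknox1 passed with arrays centred on all probes (limma effect 0.46, adjusted p = 0.0219), where 5459 of all 18332 genes passed as higher. Over all settings the limma adjusted p of Pknox1 ran from 3.55e-06 to 0.916.

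The sign of these effects depended on how arrays were centred. With each array centred on probes with both channels well above background on all arrays, the median decitabine difference over all genes moved to -0.37 in WT and -0.69 in KO cells, and all 4 genes were below 0. With centring on all probes it was 0.25 and 0.21, and 4 of 4 genes in WT and 3 of 4 in KO cells were above 0. Centring moves every gene alike, so a value relative to the median gene is the same under each centring, but other settings moved it, as the plot of decitabine differences by setting shows. Meis1 lay above the median gene with loess (by 0.05 in WT and 0.12 in KO cells) and, in KO cells, with normexp (by 0.05). Meis2 lay above it in KO cells with only probes well above background on an array (by 0.07). Relative to the median gene, Pbx3 in KO cells was at -0.12 with no probe filter, and Pknox1 in KO cells at -0.17 with the median over probes. Pknox1 in WT cells lay above the median gene under all 11 settings, by 0.06 to 0.39.

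**Figure D4:**
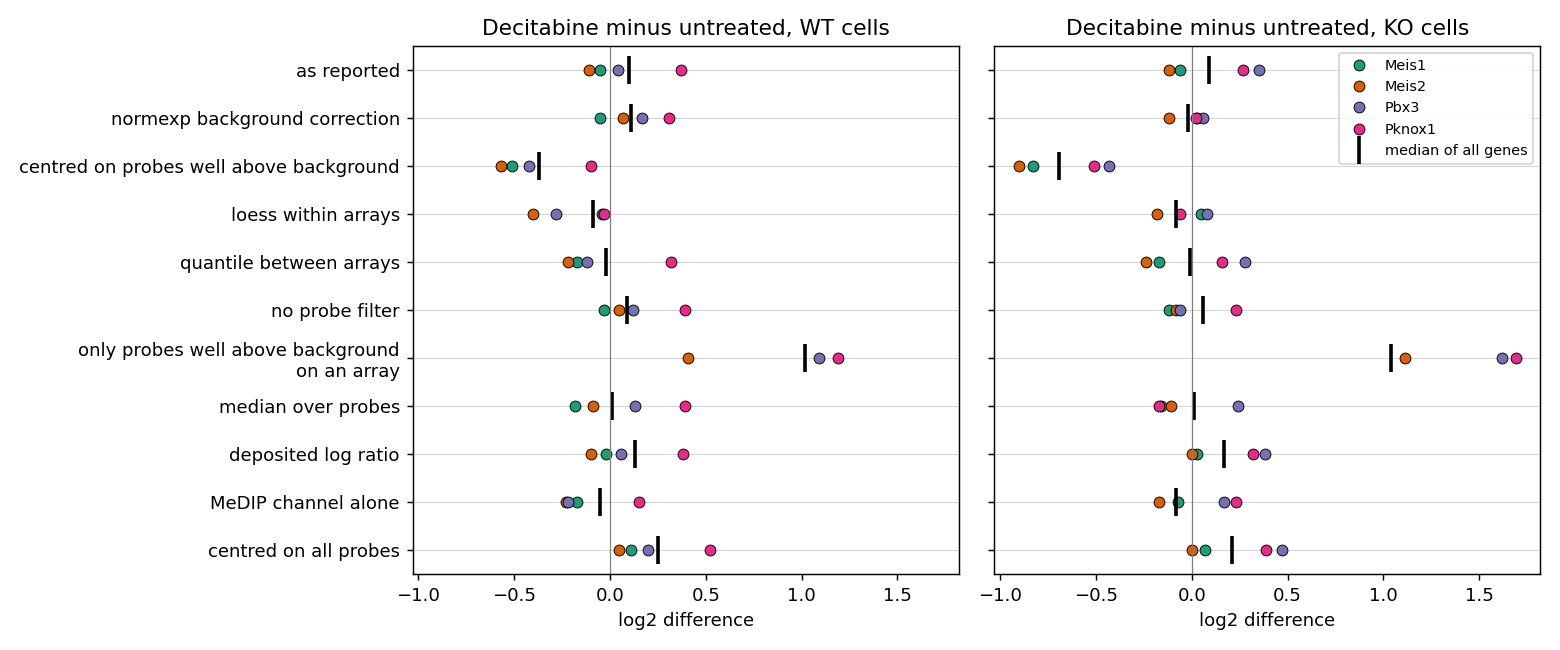
The decitabine difference (horizontal axis, log2) of each gene under each way of processing (vertical axis), in WT cells on the left and KO cells on the right, with black bars for the median of all genes. Points and bars move left together when arrays are centred on probes well above background (median -0.37 and -0.69), and Meis1 has too few probes for the setting that keeps only probes well above background on an array.

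Between genotypes without treatment, KO minus WT was 0.03 for Meis1, -0.15 for Meis2, -0.31 for Pbx3 and 0.02 for Pknox1, against a median of 0.00. Under decitabine it was 0.02, -0.17, 0.00 and -0.08, against -0.01. No gene of the 4 passed the 2-fold rule, by which 0.196% of all genes were higher and 0.164% lower without treatment, and 0.458% higher and 0.104% lower under decitabine. The genotype effect in the limma model had adjusted p of 0.924, 0.457, 0.518 and 0.915 for Meis1, Meis2, Pbx3 and Pknox1, where 2.01% of all genes passed as higher and 2.10% as lower. At an unadjusted limma p under 0.05 it was 0 of 4, against 22.6% of all genes.

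Pbx3 had the largest genotype difference of the 4 genes without treatment, and it rests on dim probes. No Pbx3 probe was well above background on both untreated arrays, so no fold is given. With no probe filter the difference was 0.03, and with normexp background correction 0.09, in place of -0.31. Single probes went both ways: the Meis1 probe at -1770 was 1.97-fold higher in KO than WT cells without treatment and 2.04-fold higher under decitabine, and the Pknox1 probe at 15921 was 2.03-fold higher in KO decitabine than in WT decitabine cells. The Meis2 probe at -853 read lower in KO cells, with differences of -0.52 without treatment and -0.66 under decitabine, or 0.97 and 0.27 with the MeDIP channel alone. Its input was higher in KO than WT cells, at 4.86 against 3.35 without treatment and 5.48 against 4.54 under decitabine. The Pknox1 probe at 17405 differed by -0.07 without treatment and by 0.94 under decitabine. Among probes well above background on both arrays of a pair, 8.05% were at least 2-fold higher and 4.89% at least 2-fold lower in KO cells without treatment, and 10.3% and 1.39% under decitabine.

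The decitabine response of KO cells minus that of WT cells was -0.01 for Meis1, -0.01 for Meis2, 0.31 for Pbx3 and -0.10 for Pknox1. With 1 array for each group this quantity has no test. The size of the Meis1 and Meis2 values was larger than in only 2.87% and 4.34% of all genes, and that of Pbx3 larger than in 75%.

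**Figure D5:**
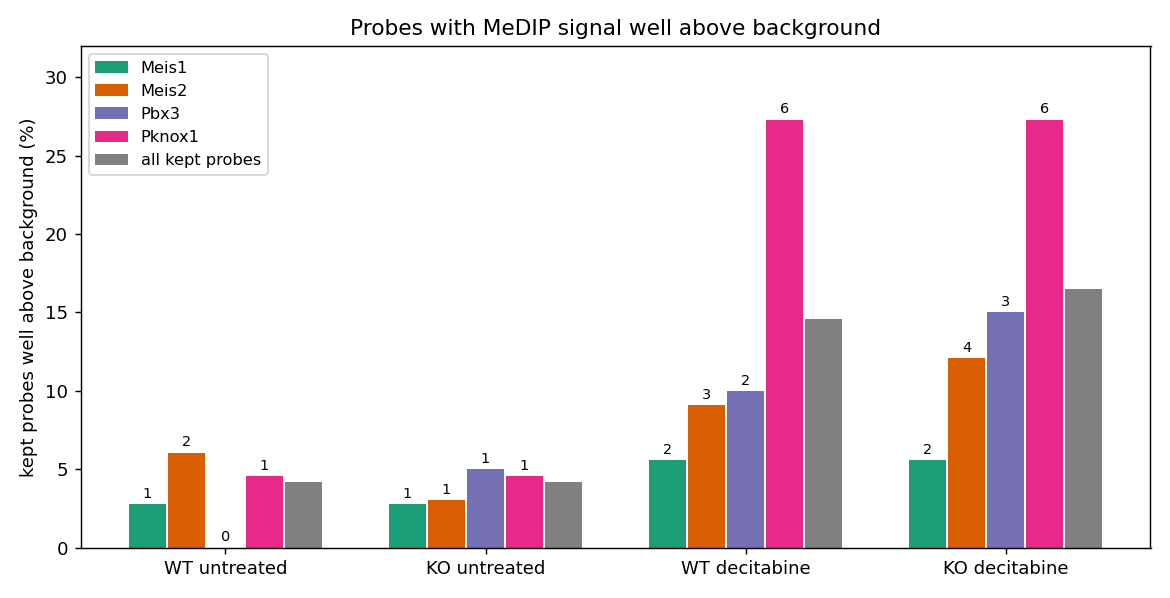
The share of kept probes with MeDIP well above background (vertical axis, %) by array, with 1 bar for each gene, the number of probes above it and a grey bar for all kept probes. Pknox1 reaches 27.3% under decitabine against 14.6% and 16.5% of all kept probes, and Meis1 stays at 5.56%.

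Counted over the 4 genes, 4, 4, 13 and 15 of 111 kept probes were well above background on the 4 arrays, with both decitabine arrays above both untreated ones. Over all kept probes the share went from 4.21% to 14.6% and from 4.21% to 16.5%. Of the 111 probes, 3 were well above background on all 4 arrays, and 94 on none. Over all kept probes the shares were 2.74% and 80.7%.

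Input DNA of all 4 genes was measured on every array. The input of Meis1 probes in exons had a median of -0.66, -0.73, -0.97 and -0.89 relative to the array median (log2), and of other Meis1 probes -0.78, -0.88, -0.73 and -0.64. The medians of Meis2, Pbx3 and Pknox1 lay between -1.42 and 0.67. Over the 4 arrays, input was well above background at 3 or 4 of 4 exonic probes for Meis1, 6 to 9 of 12 for Meis2, 10 to 16 of 17 for Pbx3 and 1 of 1 for Pknox1. Over the whole array it was so at 83.9% and 80.4% of spots on the untreated and decitabine arrays of WT cells, and at 74.7% and 69.3% on those of KO cells.

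Levels across the 4 arrays were also compared between genes by Euclidean distance. Meis1 and Meis2 were 0.21 apart, Pbx3 and Pknox1 1.29 apart, the most distant of the 4. Candidates were 5923 to 5924 other genes with a symbol, at least 10 kept probes and at least 1 kept probe with MeDIP well above background on every array. Pbx3 itself, with 0 of 20 such probes in WT untreated cells, did not meet the last condition. The nearest to Meis1 were Ccdc17 and Nrf1, a regulator of genes for mitochondrial function, at 0.0546 and 0.066. The nearest to Meis2 were Mageh1 and Enox2, at 0.0358 and 0.0406. Ankhd1 and Slbp, whose product binds the stem-loop of histone mRNA, were nearest to Pbx3, at 0.0325 and 0.0786. Ctsl, which encodes the protease cathepsin L, and Tpd52 were nearest to Pknox1, at 0.0674 and 0.0732. Within a distance of 0.2 lay 265 of 5923 candidates for Meis1, 156 of 5923 for Meis2, 26 of 5924 for Pbx3 and 108 of 5923 for Pknox1. The genes named are thus some of many within that distance.

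Of 8 other TALE cofactors and regulators, among them Meis3, Pbx2, Tgif1 and Pbxip1, none passed the 2-fold rule in any pair. In the limma model 2 of 8 passed as higher under decitabine, Pbx2 (0.67, adjusted p = 0.0104) and Pbx4 (0.61, adjusted p = 0.0217), against 11.0% of all genes as higher and 3.50% as lower. The median of the 8 was 0.26, against 0.10 over all genes, and it turned to -0.36 with centring on probes well above background. Loess gave -0.10 for this median.

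Of the 11 HOXA genes, whose products pair with these cofactors, none passed the 2-fold rule and 1 passed limma as higher under decitabine, Hoxa5 (0.56, adjusted p = 0.0225), a share near the 11.0% of all genes. The lowest was Hoxa4 at -0.15, and the median was 0.20, or -0.42 with centring on probes well above background. Of 15 genes known as targets of Hoxa9 and Meis1 in leukaemia, 3 passed as higher, Myb (0.52), Sox4 (0.50) and Msi2 (0.46), and 1 as lower, Cd34 (-0.53), with limma adjusted p from 0.0228 to 0.0328, against 11.0% and 3.50% of all genes. Myb encodes a transcription factor of blood progenitors and Cd34 a surface protein of blood stem and progenitor cells; Sox4 was named after its value was seen. The median of the 15 was 0.18, or -0.44 with centring on probes well above background, which moves every gene alike. There Cd34 read -1.15, and Myb, Sox4 and Msi2 read -0.10, -0.12 and -0.16. MeDIP was well above background at only 0, 0, 0 and 2 of 25 Cd34 probes, so its lower value rests on signal near background. The counts were 0, 0, 4 and 9 of 24 for Myb, 0, 0, 8 and 6 of 33 for Sox4, and 4, 5, 6 and 5 of 29 for Msi2. With loess, quantile normalization or the median over probes no gene of these 3 lists passed limma for decitabine, and with normexp only Pbx2 did (0.50, adjusted p = 0.024). Over all 18332 genes, 0, 9, 752 and 489 passed as higher with these 4 settings, and 0, 0, 299 and 155 as lower. With only probes well above background on an array, 7 of 7 TALE genes, 11 of 11 HOXA genes and 11 of 12 targets passed as higher. So did 8923 of all 10057 genes measured there, from probes chosen by their own MeDIP signal. With centring on probes well above background 3 of 8, 2 of 11 and 6 of 15 passed as lower and 0 as higher. Of all 18332 genes, 10555 passed as lower and 70 as higher there. With centring on all probes 5 of 8, 5 of 11 and 6 of 15 passed as higher and 1 target as lower. Of all genes, 5459 passed as higher and 318 as lower with that centring. The deposited log ratio gave 2, 2 and 3 as higher and 1 target as lower, against 2931 and 357 of all genes. For genotype no gene of the 3 lists passed limma as reported, against 2.01% of all genes as higher and 2.10% as lower. An unadjusted limma p under 0.05 was found for 0 of 8, 1 of 11 and 1 of 15, against 22.6% of all genes. Under other settings 1 HOXA gene passed for genotype with no probe filter and 1 with centring on all probes. With only probes well above background on an array, 1 TALE gene and 1 target passed. Over all genes these 3 settings passed 1469 of 18939, 543 of 18332 and 438 of 10057 as higher, and 1256, 206 and 14 as lower.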

How the data were processed

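Per the labels' protocols, genomic DNA was enriched for methylated DNA with a commercial kit, and whole-genome amplification of both MeDIP and input DNA came before labelling, which can change relative abundance. The authors deposited scanner output; the software was Agilent Feature Extraction, version 10.5.1.1 per the file headers, and given as 10.5 in the submitters' processing notes. Per the file headers the deposited intensities are linear signals, detrended, dye-normalized and with surrogate values for signals near background; 56.8% to 59.1% of kept probes had a surrogate MeDIP value on untreated arrays and 35.8% to 37% on decitabine arrays. A log10 ratio deposited with each array served as an alternative. Cy3 was MeDIP and Cy5 input on every array, so a dye effect cannot be told apart from enrichment.

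From the processed intensities, log2 of MeDIP over input was averaged over the spots of a probe and centred on the median of kept probes, with no loess or quantile step. Kept probes had input well above background and no non-uniformity outlier on all 4 arrays (63.1%). A gene needed at least 3 kept probes (18332 genes); "unmapped" probes were no gene. Limma 3.58.1 in R 4.3.3 fitted genotype and treatment without interaction, with calls at an adjusted p under 0.05, and was tested on simulated data. Build mm9 and GENCODE M1 gave positions; windows of 500 bases were CpG-dense where observed over expected CpG reached 0.75 with 55% or more G and C, and CpG-poor under 0.48.

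The 4 genes and the lists were chosen with earlier results of these data known. Named were the 4 genes, the 2 nearest genes of each, the ends of each list's range, and of each gene the probes well above background on the most arrays and the probe with the largest difference within a pair; other probes and genes were named after their values were seen. One list gene that this rule names is not reported here. Nothing states that arrays came from separate cultures. Alternatives changed the background correction, centring, normalization, probe filter, summary, log ratio or channel; centring on all probes was added after the data were seen.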

Additional observations from a re-analysis of the deposited data

Results flagged for a closer look

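The genotype difference of Pbx3 moved by 0.31 between conditions: KO minus WT was -0.31 without treatment and 0.00 under decitabine, so no change of direction is shown. For Pknox1 it moved by -0.10, from 0.02 to -0.08. Each condition has 1 array a genotype, so neither difference was tested. Over the settings tried the Pbx3 value ran from -0.19 with no probe filter to 0.53 with only probes well above background on an array.

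Of the 67 probes of the 4 genes that the filter left out, 4 had MeDIP well above background on at least 1 array. A Meis2 probe at -2471 was well above background on 3 arrays, with ratios of 4.09 in WT untreated, 3.05 in WT decitabine and 4.07 in KO decitabine cells, and read 1.38 in KO untreated cells. Of the others, 2 belong to Pbx3 and 1 to Pknox1, each above background on 1 array.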

How the results depend on the processing

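Precision was limited by 1 array for each group and by MeDIP signals near background. No paired analysis was possible because each group has a single array, and leaving out an array leaves no residual degree of freedom. None of the 4 genes passed limma for genotype under any setting. For decitabine 0 passed as reported, 2 with centring on probes well above background (Meis1 and Meis2, lower), 1 with centring on all probes (Pknox1), and 3 with only probes well above background on an array, where Meis2 turned to 0.76 (adjusted p = 0.0105); over all settings its adjusted p ran from 0.00326 to 0.962. That setting keeps only probes chosen by their own MeDIP signal and measured 3 of the 4 genes. Of all genes measured with it, 8923 of 10057 passed as higher. With centring on probes well above background 10555 of all 18332 genes passed as lower, and with centring on all probes 5459 passed as higher. The median over the 4 genes relative to the median gene was -0.10 (decitabine, WT), 0.02 (decitabine, KO), -0.07 (KO minus WT, untreated), -0.02 (KO minus WT, decitabine) and 0.00 (difference of responses). It moved beyond the spread over the genes to -0.25 with loess (KO minus WT, untreated) and, with only probes well above background, to 0.57 (decitabine, KO), -0.56 and 0.08 (KO minus WT, untreated and decitabine) and 0.49 (difference of responses); the cause was not tested. Over all genes, limma calls for decitabine were 2652, and ran from 0 with loess and 9 with quantile normalization to 10625 with centring on probes well above background; those for genotype were 754, and ran from 0 to 2725. Of the decitabine calls 75.8% were higher, against 0.659% with centring on probes well above background and 94.5% with centring on all probes. The input medians moved by at least 0.5 in 18 of 32 cases with mean minus background signals.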
